A study of Ovis aries with 42 samples.

Results

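The pars tuberalis of ewes sampled in the luteal phase was compared with the pars tuberalis of ewes sampled in anestrus, by RNA sequencing of 7 libraries in either phase. These 14 libraries, numbered 22 to 28 (luteal) and 36 to 42 (anestrous), were chosen by their labels from the 42 libraries of a study that also sequenced 7 follicular pars tuberalis libraries and 21 hypothalamus libraries. All came from adult female sheep of the Rasa Aragonesa breed, and no drug, hormone or surgical treatment is named in the labels. The labels do not state whether the 7 libraries of a phase came from separate ewes or from pooled tissue, nor the sampling dates, so every p-value measures the spread between these libraries, and season cannot be told apart from cycle state.

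The pars tuberalis forms a sleeve of pituitary tissue around the stalk that hangs from the hypothalamus. Its cells carry melatonin receptors, read the length of the night, and signal through thyrotropin to the neighbouring hypothalamus, which sets the season in which sheep ovulate. In the luteal phase a corpus luteum secretes progesterone and keeps gonadotropin release slow, whereas in anestrus the ovaries form no corpus luteum. The deposited table names each feature by an Ensembl sheep gene ID alone and 0 of the IDs could be paired with a gene symbol here, so the tissue could not be checked against its marker genes, features are given by ID, and no role is given to any of them.

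No feature passed the threshold for a difference between luteal and anestrous pars tuberalis. Of 16301 features tested, edgeR's quasi-likelihood F test called 0 (0% of the features tested) at an adjusted p under 0.05, and the lowest adjusted p was 0.999. At an unadjusted p under 0.05 there were 526 features (3.23% of those tested), of which 280 had the higher fitted level in luteal libraries and 246 the lower one, where an even spread of p-values would place 815. In bulk tissue, fewer cells of a type and less RNA per cell cannot be told apart, which holds for every value here. Further down, 104 features lay under a p of 0.01, where an even spread gives 163, and 9 lay under 0.001, where it gives 16. DESeq2 and limma-voom with sample weights, run on the same features, also called 0 (0%) each, with 619 and 822 features at an unadjusted p under 0.05 and lowest adjusted p-values of 0.282 and 0.713. The 3 tools shared 374 features at that level, and 523 of the 526 features had the same sign in all 3.

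**Figure D1:**
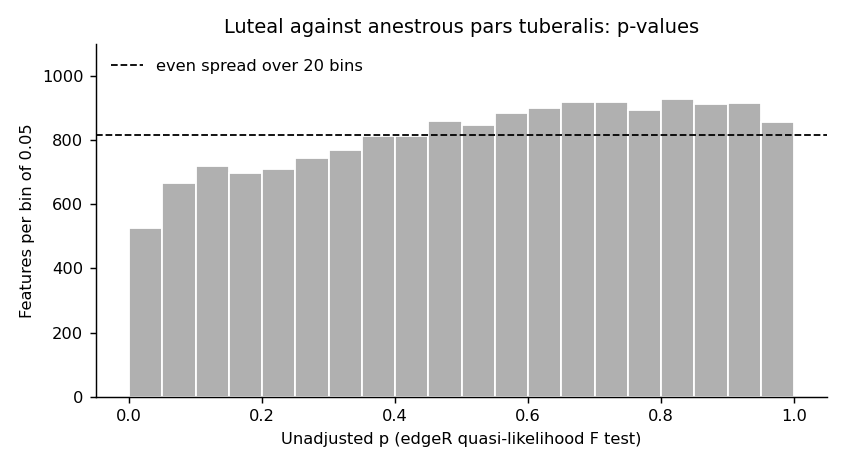
Number of features in each 0.05-wide bin of the unadjusted edgeR p-value (x axis) for luteal against anestrous pars tuberalis, with a dashed line at the height of an even spread. The lowest bin holds 526 features, fewer than any other bin, and the bin from 0.8 to 0.85 holds 929.

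The fold changes were small. The median log2 fold change, luteal minus anestrous, was 0.01, and the 5th and 95th percentiles were -0.38 and 0.50. A log2 fold change beyond 1 in size, a 2-fold difference, was fitted for 269 features, 168 of them positive and 101 negative, and 140 of the 269 averaged under 1 CPM (counts scaled to library size, with TMM factors) over the 14 libraries. The median standard error was 0.191 on the log2 scale, and the common biological coefficient of variation in the pars tuberalis was 31.9%.

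For 13004 of the 16301 features (79.8%), the 95% interval of the log2 fold change lay wholly between -1 and 1, so that for each of them a difference of 2-fold or more lay outside its own interval. For 9066 features (55.6%) it lay within a 1.5-fold difference in either direction. The share varied with the level of a feature. Among the 1645 features that averaged 100 CPM or more, 97.3% had an interval within 2-fold and the median standard error was 0.122. From 10 to under 100 CPM the share was 95.8% of 6986 features, and from 1 to under 10 CPM it was 75.4% of 5935. Of the 1735 features under 1 CPM only 13.5% had an interval within 2-fold, so for most of these the interval reached a 2-fold difference. Features at an unadjusted p under 0.05 made up 1.95%, 3.18%, 3.99% and 2.02% of the features at 100 CPM or more, 10 to under 100, 1 to under 10 and under 1 CPM.

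**Figure D2:**
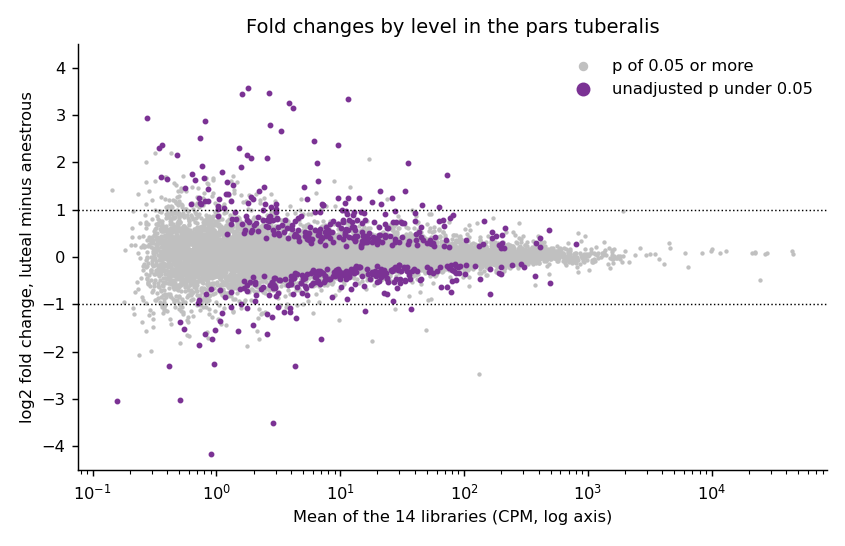
Log2 fold change, luteal minus anestrous, of each of 16301 features (y axis) against its mean over the 14 libraries in CPM (x axis, logarithmic), with the 526 features at an unadjusted p under 0.05 in purple and dotted lines at 2-fold. The cloud narrows with rising level: 1 of the 1645 features at 100 CPM or more lies beyond a dotted line, against 140 of the 1735 features under 1 CPM.

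The features nearest to a call are given as values, since none passed the adjustment. ENSOARG00000013616 lay at 135.8, 97.4, 71.649, 76.4, 150.2, 71.3 and 84.3 CPM in luteal libraries 22 to 28, and at 78.8, 39.7, 64.3, 61.4, 41.2, 44.5 and 58.4 CPM in anestrous libraries 36 to 42. Anestrous library 36 lay above 3 of the 7 luteal libraries, and the other anestrous libraries lay below all luteal ones. Luteal libraries averaged 98.1 ± 32.2 CPM and anestrous libraries 55.5 ± 14.4 CPM (SD over 7 libraries of a phase). The fitted log2 difference was 0.83, with a 95% interval of 0.40 to 1.25 and an edgeR adjusted p of 0.999. ENSOARG00000005412 averaged 29.4 ± 3.97 CPM in the luteal phase and 21.4 ± 3.39 CPM in anestrus (SD of 7 libraries). The fitted log2 difference was 0.45, within 0.21 to 0.70, at an edgeR adjusted p of 0.999. Its luteal values ran from 21.9 to 33.3 CPM and its anestrous values from 18.3 to 28.5 CPM. Anestrous library 39 held that upper value, and without it the next anestrous value was 21.9 CPM, at the level of the lowest luteal library. In follicular libraries ENSOARG00000005412 lay at 28.7 ± 4.41 CPM and ENSOARG00000013616 at 61.3 ± 16.8 CPM, so the follicular mean of the first sat beside the luteal mean and that of the second beside the anestrous mean.

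ENSOARG00000004936 lay at 5.63, 7.69, 6.10, 8.88, 11.1, 7.55 and 8.66 CPM in luteal libraries 22 to 28, and at 16.5, 13.7, 11.2, 11.3, 8.99, 14.02 and 10.4 CPM in anestrous libraries 36 to 42. Luteal library 26 was the one luteal library above the 2 lowest anestrous ones, 40 and 42. Luteal libraries averaged 7.94 ± 1.84 CPM and anestrous libraries 12.3 ± 2.57 CPM (SD over 7 libraries of a phase), and the follicular libraries lay at 10.9 ± 0.998 CPM. The fitted log2 difference was -0.62, within -0.93 to -0.31, at an edgeR adjusted p of 0.999. ENSOARG00000015730 averaged 3.61 ± 0.814 CPM in the luteal phase and 6.15 ± 1.25 CPM in anestrus (SD of 7 libraries). The fitted log2 difference was -0.77, within -1.16 to -0.37, at an edgeR adjusted p of 0.999. Its luteal range of 2.54 to 4.70 CPM met the anestrous range of 4.51 to 8.38 CPM only in luteal libraries 23 and 26 and anestrous library 39. The follicular mean of 3.44 ± 0.914 CPM lay beside the luteal one. In DESeq2 the adjusted p of each of these 4 features was 0.338, and in limma-voom it was 0.713. They are the 2 higher and the 2 lower features with the lowest p among those with counts in all 14 libraries, so their separation follows from how they were picked.

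**Figure D3:**
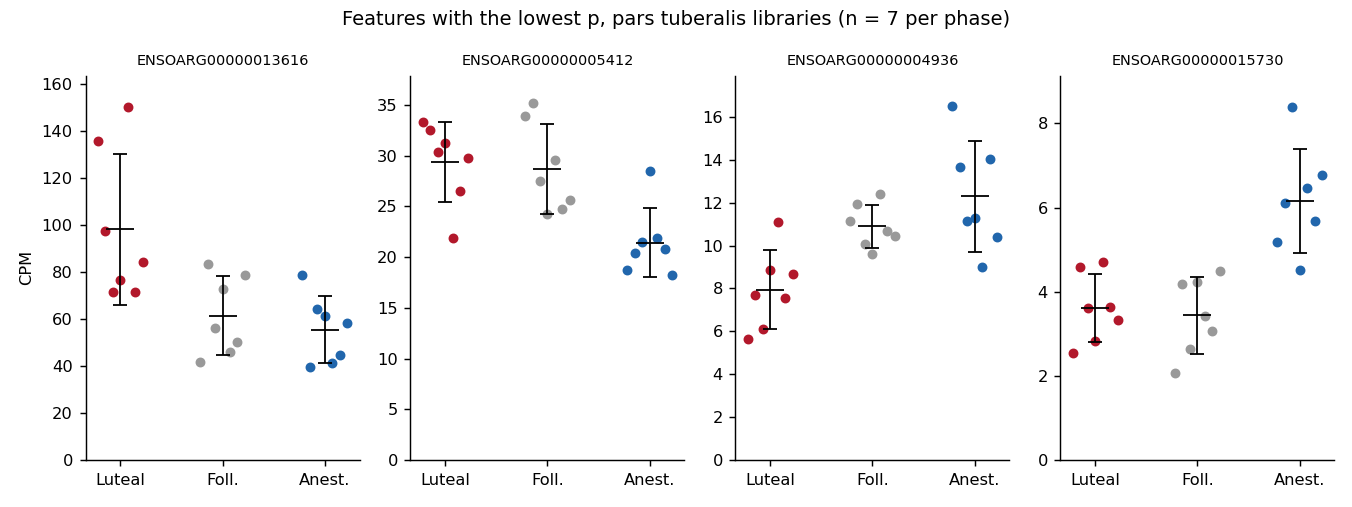
CPM (y axis, from 0) of the 2 higher and 2 lower features with the lowest p in each pars tuberalis library, with luteal in red, follicular in grey and anestrous in blue; bars give the mean and SD of 7 libraries. The luteal and anestrous libraries overlap in each panel, with luteal means of 98.1, 29.4, 7.94 and 3.61 CPM against anestrous means of 55.5, 21.4, 12.3 and 6.15 CPM from left to right.

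Complete separation of the phases was rare. In 4 of the 16301 features (0.0245%) every luteal library lay on one side of every anestrous library, and they are named here for that reason, after their values were seen. Over this many features some separate by chance alone, and the 4 are no evidence of a difference between the phases. ENSOARG00000025516 was above, at 2.39 to 3.24 CPM in the luteal phase and 2.02 to 2.38 CPM in anestrus (log2 fold change 0.40 ± 0.155 SE). ENSOARG00000016934 was below, at 0.630 to 2.39 CPM in the luteal phase and 2.41 to 3.49 CPM in anestrus (log2 fold change -0.68 ± 0.302 SE). ENSOARG00000013138 was below, at 1.13 to 1.51 CPM in the luteal phase and 1.68 to 2.54 CPM in anestrus (log2 fold change -0.66 ± 0.302 SE). ENSOARG00000014152 was below, at 0 to 0.591 CPM in the luteal phase and 0.605 to 0.903 CPM in anestrus (log2 fold change -1.13 ± 0.572 SE). All 4 are of low level, each had an edgeR adjusted p of 0.999, and the follicular libraries of each spanned both phases, as in ENSOARG00000016934 with 0.758 to 3.63 CPM.

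No feature was present in every library of one phase and absent from the other. Of the 27054 IDs, 15173 had counts in all 14 libraries and 5032 in none. Counts in luteal libraries alone were found for 963 IDs, 668 of them in 1 library, and counts in anestrous libraries alone for 816 IDs, 594 of them in 1 library. None of either kind passed the filter on low counts. When DESeq2 was run on all 22501 IDs with a count in the pars tuberalis, a setting chosen after the data were seen, it called 4, none of which was among the features tested above. ENSOARG00000019192 had 0 counts in all 7 luteal libraries and 3 to 26 counts in 6 of the 7 anestrous ones (DESeq2 adjusted p = 0.00400, edgeR without a filter adjusted p = 0.729), and all 7 follicular libraries had counts, 14 at most. The other calls rested on 1 or 2 libraries: ENSOARG00000009086 had counts in 2 luteal and 0 anestrous libraries (131 at most), ENSOARG00000016170 in 0 luteal and 2 anestrous libraries (72 at most), and ENSOARG00000013641 in 0 luteal and 1 anestrous library (210). No fold is given for these 4.

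No grouping of the libraries by phase was detected. The share of the variance of log2 CPM that lay between the phases was 6.84%, against a mean of 7.69% over all 3432 assignments of the 14 libraries to groups of 7 (one-sided exact permutation p = 0.803). Pairs of libraries had a mean correlation across features of 0.927 within the luteal phase (21 pairs), 0.932 within anestrus (21 pairs) and 0.930 between the phases (49 pairs). These values describe the libraries, since features are not independent replicates. The highest correlation of any pair, 0.959, joined a luteal and an anestrous library, and so did the lowest, 0.886.

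Luteal library 24 and anestrous library 36 stood apart from the rest of their phases. The distance of a library to the mean profile of its phase, as the root mean square over features of log2 CPM, was 1.03 for library 24 and from 0.584 to 0.709 for the other luteal libraries. It was 0.900 for library 36 and from 0.567 to 0.740 for the other anestrous libraries. These 2 libraries also held the fewest counts, 15477537 in library 24 and 14649356 in library 36, against 19036270 to 28376173 in the other 12. Among 14566 features that averaged at least 1 CPM, library 24 lay at least 2-fold above every other library of the 14 in 231 and at or under 0.5 of every other in 224. Library 36 did so in 34 and 152 features. The other libraries lay 2-fold above all others in 2 to 48 features, and as far below in 20 to 121.

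**Figure D4:**
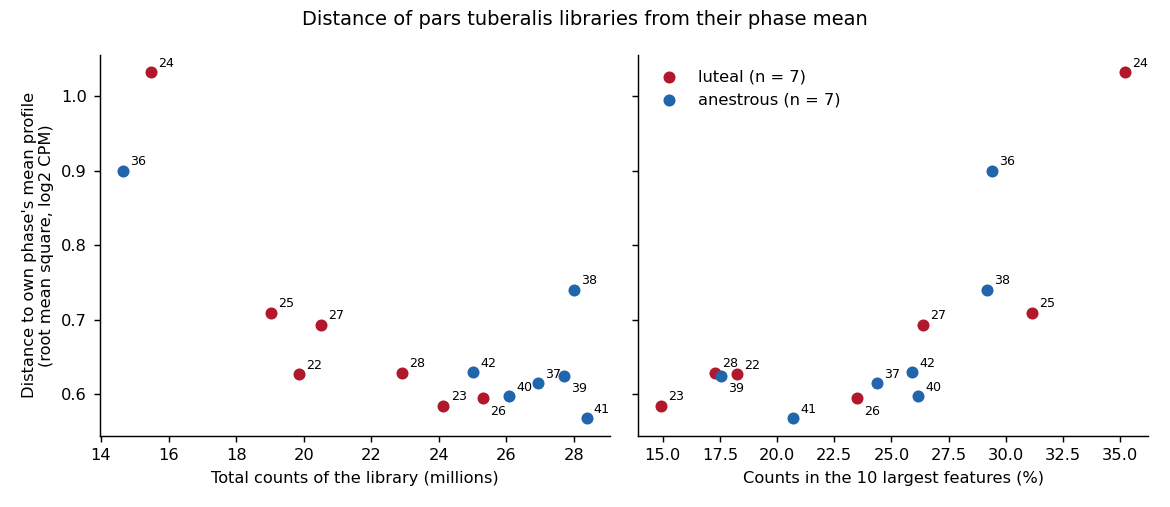
Distance of each of the 14 libraries to the mean profile of its phase (y axis) against its total counts (left, axis in units of 1e+06 counts) and the percent of its counts in its 10 largest features (right), with luteal libraries in red and anestrous libraries in blue, labelled by number. Libraries 24 and 36 sit highest, at 1.03 and 0.900, and hold the fewest counts.

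Over the 14 libraries, this distance was larger where total counts were lower (Pearson r = -0.758, permutation p = 0.00179; Spearman rho = -0.604, permutation p = 0.0246). Without libraries 24 and 36 the Pearson r was weaker, at -0.339, and no relation was detected (n = 12, permutation p = 0.283). Within a phase r was -0.866 in luteal libraries, with library 24, and -0.843 in anestrous libraries, with library 36. The distance was also larger where the 10 largest features took a larger percent of the counts (Pearson r = 0.749, permutation p = 0.000300; Spearman rho = 0.745, permutation p = 0.00343). That r was 0.605 without libraries 23 and 24, which lie farthest from the median percent (n = 12, permutation p = 0.0263), and 0.653 without libraries 24 and 36 (permutation p = 0.0215). Adjusted over these 2 relations, the Pearson p-values were 0.00179 and 0.000600 and the Spearman p-values 0.0246 and 0.00686.

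No difference between the phases in the spread of their libraries was detected. The mean distance was 0.695 ± 0.156 in luteal and 0.667 ± 0.116 in anestrous libraries (SD, n = 7 each), a difference of 0.0280 (two-sided exact permutation p = 0.693). The median SD of log2 CPM over features was 0.354 in luteal and 0.321 in anestrous libraries, and 57.4% of the features had the larger SD in the luteal phase. Without libraries 24 and 36 the medians were 0.310 and 0.299, and the share was 53.3%.

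Total counts averaged 21035786 ± 3364970 in luteal and 25257648 ± 4821117 in anestrous libraries (SD, n = 7 each), a difference of -4221862 that did not pass (two-sided exact permutation p = 0.0845, adjusted p = 0.338 over 4 library measures). Without library 36 the difference was -5989900 (exact permutation p = 0.00291, not adjusted). Leaving out any other of the 14 libraries gave exact permutation p-values from 0.0577 to 0.162, so the p fell under 0.05 only without library 36. The libraries held 18240 ± 521 features with a count in the luteal phase and 18195 ± 438 in anestrus (SD, n = 7 each). The 10 largest features took 23.8 ± 7.56% of the counts in luteal and 24.7 ± 4.33% in anestrous libraries, and the TMM factors averaged 0.984 and 0.982. For these 3 measures the two-sided exact permutation p was 0.863, 0.772 and 0.980, and the adjusted p was 0.980 for each. With the percent of the 10 largest features as a covariate, edgeR called 0 features and 681 lay at an unadjusted p under 0.05.

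The most abundant features varied between libraries with no difference between the phases that passed the test. ENSOARG00000000035, the feature with the largest mean, lay at 25960, 21991, 94257, 63709, 45461, 49858 and 26522 CPM in luteal libraries 22 to 28, and at 60395, 36634, 65478, 25066, 48089, 37873 and 39990 CPM in anestrous libraries 36 to 42. ENSOARG00000000016 came next, with 46356 ± 24708 CPM in the luteal phase and 42555 ± 12751 CPM in anestrus (SD of 7 libraries). Of the 10 features with the largest means, 9 had their highest value of the 14 libraries in library 24 and moved together, with correlations of log2 CPM with ENSOARG00000000035 from 0.944 to 0.995 across the 14 libraries, which share the scaling of each library. Their log2 fold changes ran from 0.06 to 0.13 with unadjusted p-values of 0.648 or more. The fifth in order, ENSOARG00000009137, singled out after its values were seen, did not follow them (correlation 0.339). It lay at 28589, 962, 36100, 41276, 2890, 25374 and 7984 CPM in luteal libraries 22 to 28, and at 37920, 62463, 2091, 7193, 29551, 1350 and 60481 CPM in anestrous libraries 36 to 42. Low and high libraries occurred in both phases, and the means of 20453 ± 16395 CPM in the luteal phase and 28721 ± 26313 CPM in anestrus (SD of 7 libraries) differed by less than either spread.

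The features with the most unequal SD in the 2 phases are given as description, and their spread was not tested. They are the ends of a ranking by that inequality, so it follows from how they were picked. Among features of at least 10 CPM, those with the largest excess of the luteal SD of log2 CPM were ENSOARG00000002874 (SD 2.19 in luteal and 0.49 in anestrous libraries) and ENSOARG00000002400 (1.89 and 0.32). ENSOARG00000002874 lay at 0.499, 14.05, 29.3, 20.03, 3.5035, 16.5 and 40.3 CPM in luteal libraries 22 to 28, and between 22.5 and 54.9 CPM, with a median of 38.6 CPM, in the 7 anestrous libraries. Of the luteal libraries, 24 and 28 lay within the anestrous range and the other 5 below it, while the follicular libraries had a median of 0.472 CPM and reached 34.98 CPM. Its fitted log2 fold change of -1.09 had a 95% interval of -3.03 to 0.84 (edgeR adjusted p = 0.999). It was -1.51 with surrogate variables and -2.04 with limma-voom. The unadjusted p was 0.252 with edgeR and 0.00528 with limma-voom (limma-voom adjusted p = 0.885). ENSOARG00000002400 lay at 179, 132, 390, 19.3, 23.8, 17.1 and 18.5 CPM in luteal libraries 22 to 28, and between 24.5 and 48.2 CPM, with a median of 29.9 CPM, in anestrous ones. Luteal libraries 22, 23 and 24 thus lay above all anestrous libraries and the other luteal libraries below all of them. It was the 1 feature of at least 1 CPM that was at least 2-fold higher in each of these 3 libraries than in every one of the other 18 pars tuberalis libraries, a criterion set after its values were seen. Its log2 fold change of 1.74 (95% interval 0.56 to 2.92, edgeR adjusted p = 0.999) had the opposite sign to the comparison of the medians, 23.8 CPM for luteal and 29.9 CPM for anestrous libraries. It was 0.97 without luteal library 24, 0.75 with surrogate variables and 0.50 with limma-voom, which weights libraries. The unadjusted p was 0.00591 with edgeR, 0.00234 with DESeq2 (DESeq2 adjusted p = 0.652) and 0.338 with limma-voom (limma-voom adjusted p = 0.997).

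The features with the largest excess of the anestrous SD had anestrous libraries at or near 0. ENSOARG00000001165 had 0 counts in anestrous library 37 and 7.48 CPM in library 36, beside 25.3 to 46.3 CPM in the other 5 anestrous libraries. Its luteal libraries lay between 8.48 CPM, in library 24, and 51.0 CPM, with a median of 28.6 CPM. ENSOARG00000009724 had 0 counts in anestrous library 38 and 1.03 CPM in anestrous library 42, beside 13.99 to 22.2 CPM in the others. Its luteal libraries lay between 3.72 and 14.8 CPM, with a median of 5.94 CPM.

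**Figure D5:**
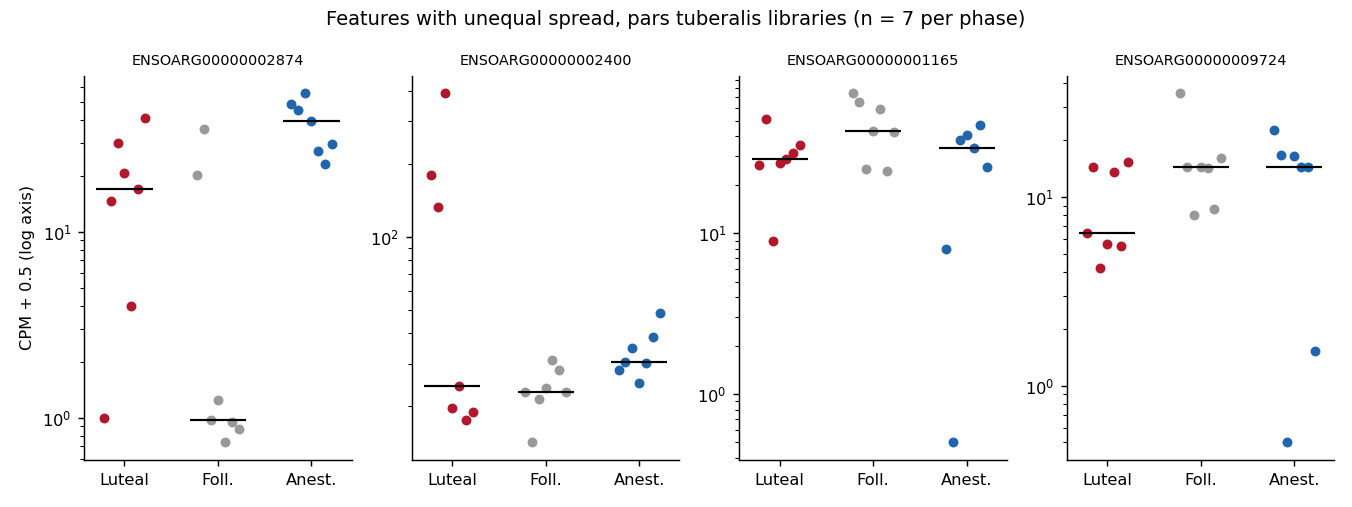
CPM plus 0.5 (y axis, logarithmic) of the 2 features with the largest excess of the luteal SD (left pair) and of the anestrous SD (right pair) in each pars tuberalis library, with luteal in red, follicular in grey and anestrous in blue; lines give the medians of 7 libraries. Luteal libraries 22, 23 and 24 lie at 179, 132 and 390 CPM for ENSOARG00000002400, and the right pair each has 1 anestrous library at 0.

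A further 15 of the tested features had 0 counts in at least 2 of the 14 libraries and at least 10 CPM in at least 2 others. They had more libraries at 0 in the luteal phase in 8 cases, in anestrus in 4 cases, and equally many in 3, a split that was not tested. At an unadjusted edgeR p under 0.05 lay 1 of the 15, where 3.23% of all features tested did. In ENSOARG00000025385, singled out after its values were seen, luteal libraries 22, 24 and 25 and anestrous libraries 40 and 41 had 0 counts. The other luteal libraries held 123 to 188 CPM and the other anestrous libraries 113 to 141 CPM, with nothing in between.

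Whether the luteal minus anestrous difference was particular to the pars tuberalis was asked in a fit of all 42 libraries with the hypothalamus. Of 17296 features tested, edgeR called 0 (0%) for the difference between the tissues, with a lowest adjusted p of 0.510. At an unadjusted p under 0.05 lay 719 (4.16%), where an even spread gives 865. The difference was higher in the pars tuberalis for 539 of the 719 and lower for 180, a split that was not tested. Without hypothalamus anestrous library 15, 1194 of 17391 features lay under that p, above the even spread, with 0 called. DESeq2 called 7, all with the higher difference in the pars tuberalis, and limma-voom called 0. Of the 7 DESeq2 calls, 3 had 0 counts in all 7 libraries of at least 1 group. The others had counts in every library of the groups compared. The median standard error of the difference was 0.344 on the log2 scale, so this question was asked with less precision than that within the pars tuberalis. In ENSOARG00000002400, one of the DESeq2 calls (DESeq2 adjusted p = 0.0331), the log2 fold change in this fit was 1.76 ± 0.439 in the pars tuberalis and -0.81 ± 0.428 in the hypothalamus (SE; difference 2.57 ± 0.612, edgeR adjusted p = 0.510). Of the features with the lowest p in the pars tuberalis, ENSOARG00000013616 had log2 fold changes of 0.83 ± 0.238 in the pars tuberalis and 0.06 ± 0.236 in the hypothalamus (SE), and ENSOARG00000005412 had 0.46 ± 0.246 and -0.38 ± 0.248. ENSOARG00000004936 had -0.62 ± 0.215 in the pars tuberalis and -0.30 ± 0.220 in the hypothalamus, and ENSOARG00000015730 had -0.76 ± 0.249 and -0.46 ± 0.246 (edgeR adjusted p of the difference 0.9999 for all 4). These 4 were picked by their p in the pars tuberalis, which by itself favours larger fold changes there. In the same fit edgeR called 0 features within the pars tuberalis and 3 within the hypothalamus at an adjusted p under 0.05. At an unadjusted p under 0.05 lay 441 features in the pars tuberalis and 1231 in the hypothalamus. Of these, 36 did so in both tissues, with the same sign in 22. The 36 are 8.16% of the first, where 7.12% of all features tested lay under that p in the hypothalamus, and 2.92% of the second, where 2.55% of all features did in the pars tuberalis. Across all features tested the log2 fold changes of the tissues had a correlation of 0.0376, given as a description.

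Within the pars tuberalis, the other comparisons with these libraries had more features at an unadjusted p under 0.05: 1380 (8.47%) for luteal against follicular and 1055 (6.47%) for follicular against anestrous. These comparisons share libraries with the luteal against anestrous one, and the difference between the counts was not tested. For luteal against follicular, edgeR called 0 features at an adjusted p under 0.05.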

How the data were processed

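A table of counts, not normalized, was deposited by the authors, with 27054 Ensembl sheep gene IDs and 42 libraries. Per the labels' protocols, frozen tissue went through a lipid tissue RNA kit and RNA was sequenced on the Illumina HiSeq platform. The submitters' processing notes name StringTie 1.3.5, SAMtools 1.7, HISAT2 2.1.0, R 3.5.1, DESeq2, Trimmomatic 0.38 and FastQC 0.11.5, with no role or order. Counts of overlapping or near-identical genes are uncertain, since strand use, shared reads, genome build and annotation were not given in the sources used here.

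Columns were matched to samples by library number, tissue and phase, with 0 columns of no sample. The reference gene table (35057 genes) matched 0 of the IDs, so the gene and marker lists that had been drawn up were not used. Library totals of the 14 libraries ran from 14649356 to 28376173 counts.

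Tests used edgeR 4.0.16 in R 4.3.3 (robust quasi-likelihood F test, two-sided, TMM scaling, filterByExpr with a minimum count of 10, Benjamini-Hochberg adjustment over all features tested). The 21 pars tuberalis libraries were fitted together with 1 estimate of the spread for the 3 phases, and all 42 were used for the difference between tissues. Standard errors are the log2 fold change over the square root of its F, and 95% intervals follow from them. Log2 CPM used a prior count of 0.5. Phase labels were permuted exactly over all assignments of 14 libraries, and correlations over 100000 random pairings. Other settings were DESeq2 1.42.0, limma-voom (limma 3.58.1), RLE scaling, other filters, a fit of the compared libraries alone, 5 surrogate variables (sva 3.50.0), the percent of the 10 largest features as a covariate, no 20 largest features, and leaving out each library. The tests were also run on simulated counts drawn independently for each feature. That run cannot show how the tests behave where features vary together between libraries.

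Features named by rule are the 2 higher and 2 lower with the lowest p among those with counts in all 14 libraries. The rule also took the 2 of at least 10 CPM with the largest excess of SD in either phase and the 2 with the largest mean. Outside the rule, and after values were seen, the features without overlap, the sparse DESeq2 calls, ENSOARG00000009137 and ENSOARG00000025385 were named. The comparison, the rule and the settings were chosen with earlier results of these data known.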

Additional observations from a re-analysis of the deposited data

Results flagged for a closer look

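In 6 of 58 groups of 7 libraries, 1 library lay far from the others by Dixon's test. A chance rate of about 1 in 20 groups, or 2.9 of 58, would hold for independent groups not chosen by their values. The groups here include those of the named features, which were picked by their values, and they share libraries. The 6 therefore cannot be judged against 2.9, and no excess over chance is drawn from them. In total counts, anestrous library 36 was lowest (14649356). In distance to the mean profile of the phase, luteal library 24 was highest (1.033). ENSOARG00000005412 was highest in anestrous library 39 (28.5 CPM, inside the luteal range of 21.9 to 33.3 CPM). In follicular libraries, ENSOARG00000009724 was highest in library 29 (34.94 CPM), ENSOARG00000016934 was highest in library 35 (3.626 CPM), and ENSOARG00000025385 was lowest in library 32 (0 counts, beside 109.5 to 182.9 CPM in the others). No cause of these values was tested.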

How the results depend on the processing

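Under every edgeR and limma-voom setting run, 0 features were called for luteal against anestrous pars tuberalis, and leaving out any of the 14 libraries gave 0 to 0 calls. The lowest adjusted p over these settings was 0.144, with 5 surrogate variables. DESeq2 called 4 sparse features only when run on every ID with a count. Features at an unadjusted p under 0.05 numbered 526 (3.23%) in the main fit, where an even spread gives 815. They numbered 1140 (5.07% of 22501 features tested) with no filter on low counts and 822 (5.04%) with limma-voom. With surrogate variables they numbered 1433 (8.79%), above the even spread, with 0 called. Leaving out single libraries gave 439 to 654 (2.67% to 3.98%). Leaving out libraries 24 and 36, chosen after the data were seen, gave 589, of which 317 were among the 526. Features with an interval within 2-fold numbered 12680 to 13102 without single libraries. The share of variance between the phases was 6.84% in the main setting. It was 6.97% to 7.97% without single libraries (exact permutation p from 0.619 to 0.935) and 9.01% without libraries 24 and 36 (exact permutation p = 0.515). Over the 1000 most abundant features alone it was 2.79% (exact permutation p = 0.987). The share that random assignment gives is larger with fewer libraries, so the higher shares are no sign of stronger grouping. The difference in distance ran from -0.0512 (without luteal library 24, the sign reversed) to 0.0871. DESeq2 called 7 features for the difference between tissues, and leaving out any of 28 libraries left 0 to 0 with edgeR. Without single libraries, the difference in total counts ran from -5989900 to -3295500, in features with a count from -92.9 to 191, in the percent of the 10 largest features from -2.83 to 0.547 and in TMM factor from -0.0321 to 0.0535. Counting features with at least 10 counts reversed the sign of that difference (-182). No cause was tested. The 10 log2 fold changes recomputed kept their sign under each edgeR, limma-voom and filtered DESeq2 setting that gave a value, with ENSOARG00000014152 not tested under the filter of 1 CPM in 7 libraries, and with those of ENSOARG00000002400 between 0.97 and 1.95 without single libraries. No paired analysis was made, since the labels tie no luteal library to an anestrous one. Precision was lowest in the 1735 features under 1 CPM.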

Other observations

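The counts of ENSOARG00000025385, which was at 0 or above 100 CPM in pars tuberalis libraries, can be set beside those of the hypothalamus libraries of the same phases. Luteal hypothalamus libraries 1, 4 and 7 and anestrous hypothalamus libraries 16, 17, 18 and 20 had 0 counts, and the other luteal and anestrous hypothalamus libraries held between 1855 and 8082 counts. In the pars tuberalis the luteal libraries with counts held 3347 to 4260 and the anestrous ones 1716 to 4214. In both tissues, each phase thus held libraries of either kind. The labels do not tie libraries of the 2 tissues to the same ewe.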
